A study of Homo sapiens with 2 samples.

Results

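Tall compact peaks are narrow stretches of the genome where CUT&Tag with the S9.6 antibody gave high read coverage in A549, a human lung cancer cell line, here of wild-type genotype. S9.6 binds RNA-DNA hybrids, and in CUT&Tag a transposase tethered to the antibody cuts and tags nearby DNA. The peaks were chosen from the deposited S9.6 peak list by their own height and width: a maximum coverage of 10 or more and a width below 1500 bp, on chromosomes 1 to 22. The rule found 409 of the 44994 peaks on these chromosomes (0.909%). The series holds 2 libraries of these cells with the genotype WT, 1 made with S9.6 and 1 with IgG. Values of IgG were not used here. With 1 S9.6 library there was no replicate, so no comparison carries a test. The 95% intervals given for shares are exact binomial (Clopper-Pearson) intervals and cover counting error only.

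An R-loop forms when an RNA pairs with the template strand of DNA and leaves the other DNA strand single. R-loops are known to form over the starts and ends of transcribed genes, most often where the DNA is rich in G and C, and at repeated DNA such as ribosomal RNA genes and chromosome ends. Many human genes start in pairs that point away from each other and share a CpG-rich promoter between them.

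The maximum region, where the peak caller recorded the highest coverage of a peak, lay wholly inside a promoter window of a RefSeq gene (GRCh38.p14) for 117 members. A promoter window runs from 250 bases before to 50 bases after a start. The 250 bases before the start are shown for 5 protein-coding genes, picked from those whose maximum region lies in these bases, to show where in the promoter the coverage was highest. Each is written 5′ to 3′ on the gene's strand with the maximum region in capitals.
DEAF1: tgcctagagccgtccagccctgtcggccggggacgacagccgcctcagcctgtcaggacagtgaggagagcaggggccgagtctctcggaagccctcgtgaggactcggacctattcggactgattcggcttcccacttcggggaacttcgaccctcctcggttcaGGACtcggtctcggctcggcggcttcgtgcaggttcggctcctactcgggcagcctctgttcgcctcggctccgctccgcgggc
MYL11: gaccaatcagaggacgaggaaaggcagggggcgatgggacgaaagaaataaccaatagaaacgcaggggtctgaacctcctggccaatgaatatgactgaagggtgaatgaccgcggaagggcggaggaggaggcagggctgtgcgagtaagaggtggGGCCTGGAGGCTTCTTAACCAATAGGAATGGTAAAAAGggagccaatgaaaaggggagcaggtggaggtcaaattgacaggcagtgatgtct
NAPA: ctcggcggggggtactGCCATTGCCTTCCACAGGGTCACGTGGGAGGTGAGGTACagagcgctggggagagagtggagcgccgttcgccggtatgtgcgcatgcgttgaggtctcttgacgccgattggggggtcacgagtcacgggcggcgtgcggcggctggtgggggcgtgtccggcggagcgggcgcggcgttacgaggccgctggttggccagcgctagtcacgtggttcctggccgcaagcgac
FAR1: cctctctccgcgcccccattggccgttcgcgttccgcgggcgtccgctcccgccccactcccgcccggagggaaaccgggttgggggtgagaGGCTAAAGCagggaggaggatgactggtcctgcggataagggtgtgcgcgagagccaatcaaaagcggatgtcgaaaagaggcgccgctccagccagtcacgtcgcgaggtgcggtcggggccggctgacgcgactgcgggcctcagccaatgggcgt
JUND: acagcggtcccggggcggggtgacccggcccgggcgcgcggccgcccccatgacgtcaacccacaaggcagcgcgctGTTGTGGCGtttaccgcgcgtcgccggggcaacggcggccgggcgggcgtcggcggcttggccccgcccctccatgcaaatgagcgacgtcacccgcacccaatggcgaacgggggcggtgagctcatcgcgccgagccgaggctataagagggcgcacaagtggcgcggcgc

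These 5 stretches are chr11:695223-695472 on the minus strand for DEAF1, a transcription factor, and chr16:30370684-30370933 on the plus strand for MYL11, a muscle myosin light chain. NAPA, which helps take apart the SNARE complexes of membrane fusion, has chr19:47515064-47515313 on the minus strand. FAR1, a fatty acyl-CoA reductase, has chr11:13668418-13668667 on the plus strand, and JUND, a subunit of the AP-1 transcription factor, has chr19:18281623-18281872 on the minus strand. The maximum coverage was 24 at DEAF1, 19 at MYL11, 18 at NAPA, 18 at FAR1 and 12 at JUND. With upstream positions negative, the summit, the middle of the maximum region, lay at -82 bp from a DEAF1 start, -74 bp from that of MYL11, -215 bp from that of NAPA, -154 bp from that of FAR1 and -169 bp from that of JUND. The upstream side of these 5 follows from how they were picked. TMED1 and FBXO24, both with a maximum of 18, had the summit at 46 and 38 bp after the start. The MYL11 stretch holds 5 CCAAT boxes on either strand, the FAR1 stretch 3 and the JUND stretch 1, while JUND has 5 GC boxes (GGGCGG on either strand) and DEAF1 has 0 of either.

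Most members were only just above the height limit. Maximum coverage is the value the authors' peak caller gave for the highest base. Its unit is not stated and was read here as reads or fragments piled up. It had a median of 12 in the members and reached 775. It was 10 to 12 in 212 members (51.8%), 13 to 19 in 121, 20 to 49 in 52 and 50 or more in 24. Just inside the limit stood 102 members at exactly 10, and just outside it 165 peaks of the same widths at 9. In width, 14 members measured 1400 to 1499 bp and 20 peaks of the same heights measured 1500 to 1599 bp. The widest member, of 1492 bp with a maximum of 10, lay at RNF139, a ubiquitin ligase gene; the member with the highest total signal at the limit of 10, 6918, lay at CLCF1, a cytokine gene. The median member was 919 bp wide, the narrowest 68 bp. The members covered 1.07% of the summed peak width and held 4.12% of the total signal on these chromosomes.

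**Figure D1:**
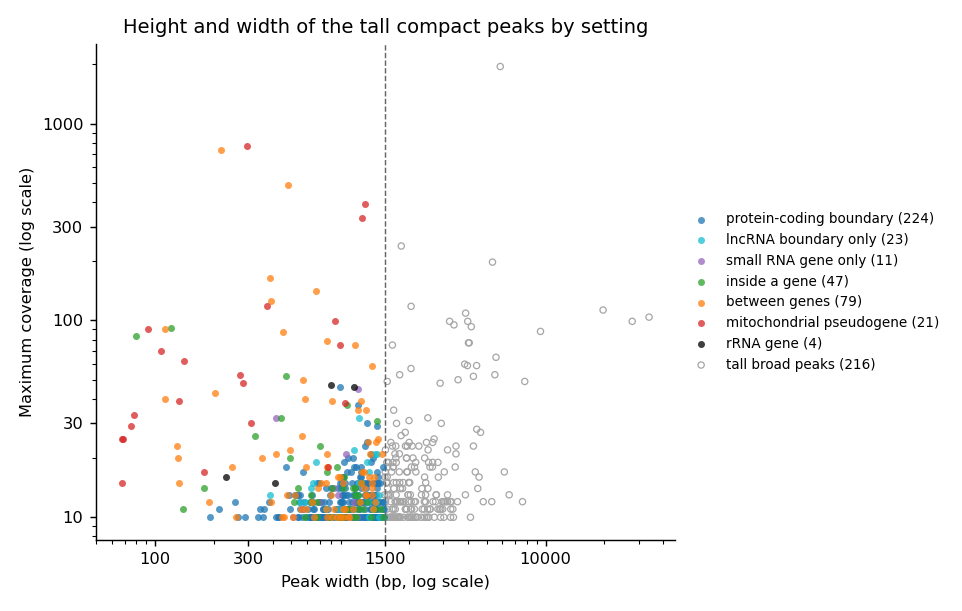
Maximum coverage against width, both on log scales, for the 409 tall compact peaks coloured by setting, left of the dashed line at 1500 bp, with the 216 peaks of the same heights at 1500 bp or wider as open circles. Members at a protein-coding gene (blue) crowd between 10 and 46 on the vertical axis. Mitochondrial pseudogene (red) and intergenic (orange) members make up most of the coloured points above 50.

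Members were sorted by what lay there in the RefSeq gene table of GRCh38.p14. A peak was called at a gene boundary when it reached to 1000 bp or less from either end of a gene, counting genes that code for protein and lncRNA genes. By this measure 248 of 409 members were at a boundary, 60.6% (interval 55.7% to 65.4%). The share was 62.2% in the 3190 peaks of the same widths with a maximum of 5 to 9, called middle compact here, and 18.96% in the 40259 peaks of those widths with a maximum under 5, called low compact. Over all 44994 peaks it was 23.2%. The tall compact and middle compact intervals overlapped, so these classes could not be told apart by this share, and both stood far above the low compact peaks. It was 50.9% (44.1% to 57.8%) in the 216 tall broad peaks, those of 10 or more and at least 1500 bp. In 57.5% of members the summit itself was at a boundary, in 17.1% it was inside a gene and in 25.4% between genes. Of all peaks, 50.7% had the summit inside a gene and 29.3% between genes, and 9000 of the 44994 had it at a boundary.

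Each member was also given a single setting, with mitochondrial pseudogenes and ribosomal RNA genes taking precedence. Of the 409, 224 were at a boundary of a protein-coding gene, 23 at a boundary of a lncRNA gene only, and 11 at a small RNA gene only. Another 47 lay inside a gene, 79 between genes, 21 at a mitochondrial pseudogene and 4 at a ribosomal RNA gene. Of the 21, 1 was also at a boundary, that of AMPD3. The 224 at protein-coding genes ranged in maximum coverage between 10 and 46 with a median of 12. The 79 between genes had a median of 15 and held 30.7% of the members' total signal, against 39.8% for the 224.

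The share at a boundary differed with height inside the class. Of members with a maximum of 10 to 12, 73.6% were at a boundary, then 63.6% at 13 to 19, 28.8% at 20 to 49, and 0 of 24 at 50 or more, where the interval reaches 14.2%. Width went the other way: 18.2% of the 33 members below 300 bp were at a boundary, 45.8% at 300 to 599 bp, 62.0% at 600 to 899 bp, 64.5% at 900 to 1199 bp and 78.1% of the 96 members at 1200 to 1499 bp. Of the 33 members below 300 bp, 13 were at mitochondrial pseudogenes and 5 were the first or last peak of a chromosome.

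**Figure D2:**
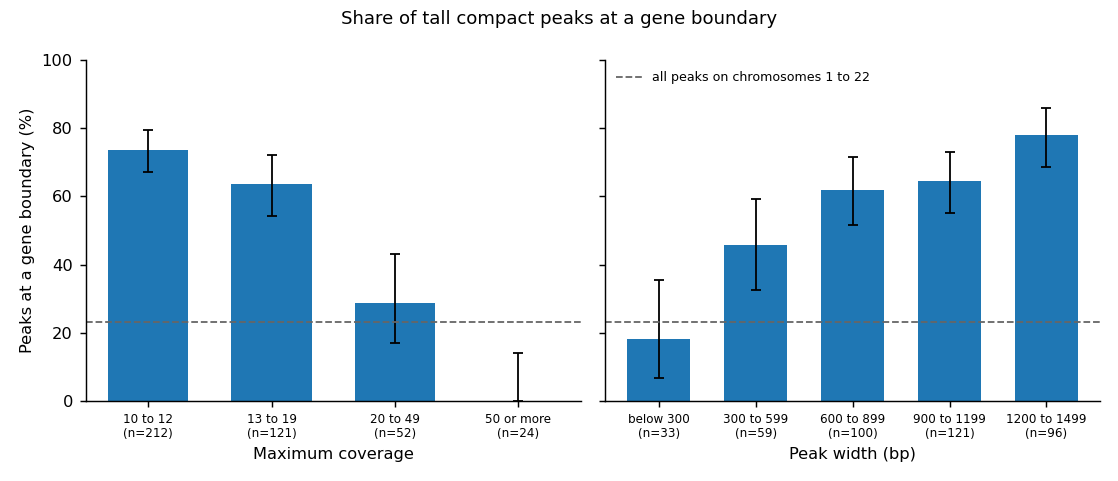
Share of tall compact peaks at a gene boundary (percent, bars) by maximum coverage on the left and by width on the right, with exact 95% binomial intervals and the number of members under each bar; the dashed line marks the 23.2% of all peaks. The share falls over the height classes to 0 of 24 at 50 or more, and is lowest, 18.2%, in the narrowest members.

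The 20 tallest members, all with a maximum of 62 or more, included 0 at a gene boundary. Of the 20, 9 lay at mitochondrial pseudogenes, old copies of mitochondrial DNA inserted in the nuclear chromosomes. The tallest of all, chr17:22521302-22521598, reached 775 beside MTCYBP13, a copy of the cytochrome b gene. A peak beside MTRNR2L8, a copy of the mitochondrial 16S ribosomal RNA gene, reached 333 (chr11:10509182-10510323). The next tallest after MTCYBP13, chr13:109424126-109424342, reached 736 in 217 bp with no listed gene, and the one after it, chr3:93470340-93470820, reached 489 in the widest stretch of chromosome 3 without a gene. Another 5 of the 20 were the first or last peak of their chromosome: the last of chromosome 12 (165), 22 (142), 18 (126) and 1 (79), and the first of chromosome 10 (87). Inside genes the tallest were chr2:148881732-148881852 at 92 in KIF5C, which encodes a kinesin motor, and chr12:41363644-41363723 at 83 in PDZRN4; they were 121 and 80 bp wide. Of the rest of the 20, MTCO1P2, a copy of a cytochrome oxidase gene within AKAP6, had 75, and MTATP8P2, a copy of an ATP synthase gene within RGPD2, had 62. On chromosome 4, chr4:190122084-190123140 reached 75 with no listed gene.

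The 21 members at mitochondrial pseudogenes lay on 7 chromosomes, with 11 on chromosome 5. Their maximum coverage was 15 to 775, with a median of 48, and their median width was 272 bp. A row of 7 lay within the span of PCBD2, over copies of ND4, ND5, ND6 and cytochrome b sequence: these 7 members reached 118, 91, 70, 48, 30, 25 and 17. Of the 450 genes of this kind in the table, 22 (4.89%) had a tall compact peak over or within 1000 bp of them, and 52 had a peak of any class. The mitochondrial chromosome itself was covered by a single peak over all 16569 bases with a maximum of 7798, 10.1 times the tallest member. How reads that map to several places were placed is not given in the sources used here, and the part of mitochondrial DNA in these peaks was not tested.

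There were 17 members at the very end of a chromosome's list. Of these, 7 were the first peak of a chromosome and began at or before base 12000, and 10 were the last. There are 44 such first and last positions over the 22 chromosomes, so 17 of 44 were tall and compact, against 0.909% of all peaks. First peaks were also found on chromosomes 1 (52), 3 (46), 12 (40), 7 (18), 18 (14) and 4 (11), and last ones on 13 (43), 2 (23), 20 (18), 19 (15), 4 (12) and 10 (12). The first peak of chromosome 3, chr3:9987-10874, was also the tallest of the 224 at protein-coding genes, because it came within 1000 bp of LOC124905351. In the widest stretch without genes of each chromosome lay 23 members, 5.62% (3.60% to 8.32%), against 1.46% of all peaks. The share of tall broad peaks was similar, 14 of 216 or 6.48% (3.59% to 10.6%).

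Leaving the chromosome end aside, the tallest members at protein-coding genes were these. CIC, a transcriptional repressor acting below receptor tyrosine kinases, had a maximum of 37 at chr19:42268116-42269207, with the summit at -254 bp from a start. A peak of 30 at chr19:44890214-44891433 lay between the end of NECTIN2, a cell adhesion protein, and the start of TOMM40, the pore through which proteins enter mitochondria; its summit was at -474 bp from the TOMM40 start. A peak of 29 at chr2:241355014-241356379 came within 1000 bp of an end of FARP2, a Rac activator, and of SEPTIN2, a cytoskeletal GTPase. The start of SEPTIN2 lay at another peak, the tall broad chr2:241314553-241317008, so a shared promoter is not meant here. DEAF1 and TMEM80, whose starts are 417 bp apart, shared the peak of 24 whose sequence is shown above. FAM86B1 on chromosome 8 had 23. SETD5 and the antisense RNA THUMPD3-AS1 shared a peak of 21, SP1, a transcription factor that binds GC boxes, had 20 with the summit at -302 bp, and KPNB1, the importin beta that carries proteins into the nucleus, had 20. These heights span 20 to 37, while the median of the group was 12, close to the limit of 10.

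The 47 members inside a gene had a median maximum of 12 and a median width of 902 bp, with values between 10 and 92. After KIF5C, PDZRN4 and the first peak of chromosome 1 came LOC105375805 with 37, SERINC2, which overlaps LOC124903900, with 32, GALNT9, which starts O-linked sugar chains, with 31, and HFM1, a meiotic DNA helicase, with 26. RYR1, the calcium release channel of muscle, had 16. The share of members with this setting was 11.5% (8.57% to 14.99%), against 21.7% of middle compact, 51.0% of low compact and 47.9% of all peaks. This setting made up less of the members than of the lower peaks. It is not the gene body alone, since a peak at a start within the gene's span also counts as inside. An example is the tall broad peak at SIN3A, with the summit at -181 bp from a start. The 23 members at a lncRNA gene only had a median of 13 and a highest value of 32, at FAM27C and FAM27E4 on chromosome 9, followed by LINC02449 with LOC112268090 at 22.

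Promoter windows of chromosome 8 were not used here, which leaves 394 of the 409 members for positions relative to starts. Of these, 216 (54.8%) lay within 1000 bp of a listed start of a gene, close to the 55.6% of middle compact peaks and above the 12.7% of low compact ones. The start was inside the peak in 83.8% of the 216. Where the summit stood was less even than in lower peaks. In 160 of the 216 members, 74.1% (67.7% to 79.8%), the summit was upstream of the nearest start, against 61.9% (59.5% to 64.2%) of 1687 middle compact and 44.9% (43.5% to 46.3%) of 4818 low compact peaks. Among the tall broad peaks it was 65.3%, with an interval of 55.0% to 74.6% that overlapped that of the members. The median summit of the members was at -129.5 bp from the start, with quartiles at -236 and 14.75 bp. Middle compact summits had a median of -63 bp and low compact ones of 51 bp. The tallest 100-bp bin of the members ran from -200 to -100 bp and held 22.7% of them. The median member at a start began at -621.5 bp and ended at 346.5 bp.

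**Figure D3:**
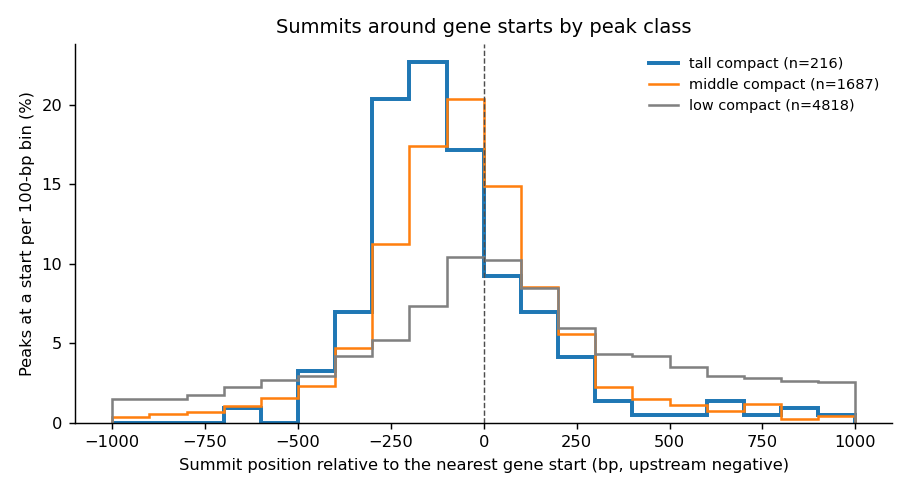
Position of the peak summit relative to the nearest gene start (bp, upstream negative) in 100-bp bins, as percent of the peaks at a start, for 216 tall compact, 1687 middle compact and 4818 low compact peaks. The tall compact line is highest from -300 to -100 bp, the middle compact line in the 100 bp before the start, and the low compact line is flatter and reaches farther downstream.

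Some members lay near genes that start back to back. At 72 of the 216, 33.3% (27.1% to 40.0%), the 1000-bp reach took in starts on opposite strands pointing away from each other, against 27.4% (25.3% to 29.6%) of middle compact and 17.4% of low compact peaks. Among tall broad peaks it was 25.5% (17.2% to 35.3%). The members' interval overlapped those of the middle compact and tall broad peaks. In 48 of the 72 the summit lay between the starts, 66.7% (54.6% to 77.3%), against 44.3% (39.7% to 48.9%) of 463 middle compact pairs and 20.1% of 837 low compact pairs. The starts of these pairs were also farther apart, with a median of 362.5 bp at members and 194 bp at middle compact peaks. Examples with the summit in the gap were TBC1D10B and MYL11, 440 bp apart with a peak of 19, and TOM1L2 and DRC3, 413 bp apart with 16. MAPK7, a MAP kinase, and B9D1, a protein of the cilium's base, were 585 bp apart with 15. LPXN and ZFP91 were 930 bp apart with 16, and P4HB, the protein disulfide isomerase, and LOC124904086 were 575 bp apart with 14. By the count of gene ends alone, 117 of 409 members (28.6%) touched the boundaries of 2 or more genes, against 26.1% of middle compact peaks and 6.99% of all peaks.

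The promoter windows themselves were compared for protein-coding genes. A window was counted for the highest class of peak that touched it: 290 windows of 231 genes had a tall compact peak, 1965 a middle compact one and 15238 had none. Of the 290, 104 share bases with another of them, since a gene can have several listed starts, so they are not independent and the intervals are too narrow. The median GC content was 67.3% at members, 67.3% at middle compact peaks and 60.0% in windows with no peak. The ratio of observed to expected CpG was 0.868, 0.865 and 0.643 in that order. On these 2 measures the medians of tall and middle compact peaks lay close together, and both were above those of windows without a peak. Over the 100 bases before the start, the median excess of G over C on the sense strand was 12.4% at members. It was 11.1% at tall broad peaks, 6.25% at middle compact peaks and 2.22% with no peak, and its spread was not computed. Over the 50 bases after the start the medians were 13.3%, 12.5%, 13.6% and 6.25% in the same order.

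Motifs were searched by their letters on both strands. The GC box (GGGCGG), which SP1 binds, was in 85.2% (80.6% to 89.1%) of the windows at members, 79.8% (78.0% to 81.6%) at middle compact peaks, 49.2% with no peak and 56.6% of all 21155 windows. The CCAAT box (CCAAT), bound by NF-Y, was in 55.2% (49.2% to 61.0%) at members, 44.5% (42.3% to 46.7%) at middle compact peaks, 31.6% at low compact peaks, 33.0% with no peak and 34.4% of all windows. Of the motifs named here, the CCAAT box alone had a members' interval clear of the middle compact one, though these intervals are too narrow. At the 141 windows with a tall broad peak, the CCAAT box was in 48.9% (40.4% to 57.5%). The GC box was in 78.0% (70.3% to 84.5%) of them, and both intervals overlapped those of the members. The TATA box (TATAAA) was in 3.10% at members, 3.82% at middle compact peaks and 11.6% with no peak. A G-quadruplex pattern, 4 runs of at least 3 G with 1 to 7 bases between them, was in 37.2% (31.7% to 43.1%), 32.5% (30.4% to 34.6%) and 28.9%, with overlap between the first and second. The ETS motif (CCGGAAG) was in 18.6%, 20.7% and 10.4%, and the NRF1 motif in 1.03% (0.214% to 2.99%), 3.56% (2.79% to 4.48%) and 0.998%. The G-quadruplex pattern was in 42.6% (34.3% to 51.2%) of windows at tall broad peaks, above the members but with overlapping intervals. At low compact peaks this pattern was in 34.4% (32.7% to 36.1%), an interval that overlapped those of the members and the middle compact peaks. A match says only that the letters are there. The MYL11 sequence shown above, with its 5 CCAAT boxes, has the most among those printed.

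**Figure D4:**
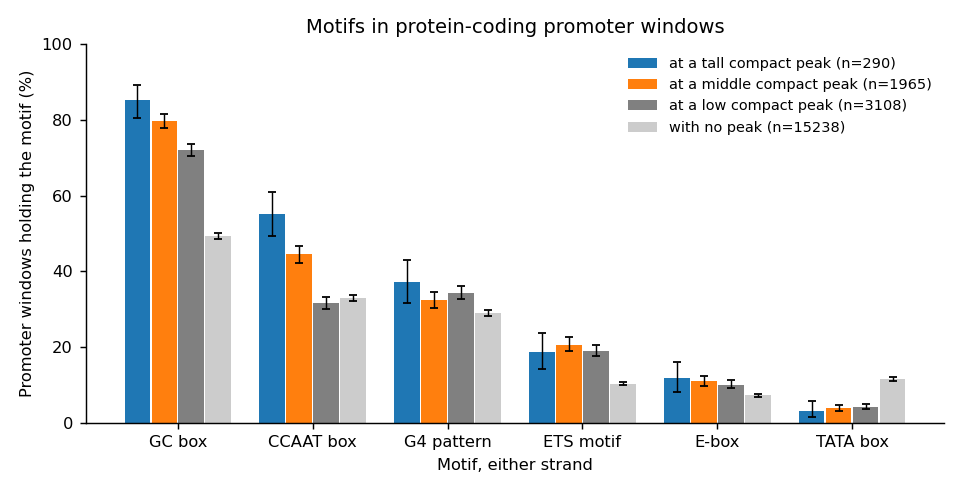
Share of protein-coding promoter windows (percent, with exact 95% binomial intervals) that hold each motif on either strand, for 290 windows at a tall compact peak, 1965 at a middle compact peak, 3108 at a low compact peak and 15238 with no peak. The GC box and CCAAT box bars are highest at tall compact peaks, and the TATA box bar is highest, 11.6%, with no peak.

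Counted by gene, 286 of 19122 protein-coding genes (1.5%) had a tall compact peak at a boundary, as did 88 of 17795 lncRNA genes (0.495%) and 442 of 56752 genes of every class (0.779%). Across 24 gene lists with 1572 genes, 24 genes had such a peak, 1.53%, next to the 1.5% of all protein-coding genes. The lists are not all protein-coding, since 3 of these 24 genes came from a list of 31 structured RNA genes. No share is read from so few genes, and the members of each list are given as what was found. The numbered zinc finger genes, most of which encode DNA-binding repressors, gave 10 of 497: ZNF438 had a maximum of 16, ZNF524 and ZNF687 15, ZNF146, ZNF174 and ZNF181 13, ZNF131, ZNF143 and ZNF837 12, and ZNF219 11. In the list of m6A factors, 1 of 21 genes had one: ALKBH5, an eraser of N6-methyladenosine, with 16 at chr17:18183189-18184316 and the summit at -296 bp. Of 30 cell cycle and replication genes, CDK2 had an end within 1000 bp of a peak of 12. The nearest listed start to that summit was of RAB5B, at -102 bp. PCNA, the clamp of DNA polymerases, had a peak of 12 together with CDS2. The splicing list gave HNRNPA1 and SRSF5 at 10 each, of 39 genes.

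Single genes came from 5 other lists: STIP1, a co-chaperone of HSP70 and HSP90, with 13; JUND with 12; ENO1, a glycolytic enolase, with 10; GAS5, a host of several snoRNAs, with 10; and NECTIN2 with 30. EIF2AK3 with 13 was caught by its name in the list of translation initiation factors, though it encodes the stress kinase PERK. Several lists had 0: 0 of 32 R-loop processing genes, 0 of 23 nucleic acid sensing genes, 0 of 36 interferon-stimulated genes, 0 of 33 NRF2 targets, 0 of 38 proteasome subunits, 0 of 77 mitochondrial and 0 of 80 cytosolic ribosomal protein genes. The interval for 0 of 80 reaches 4.51%, above the 1.5% of all protein-coding genes, so nothing is read from it. A peak of any class was at a boundary of 48 of the 80 cytosolic ribosomal protein genes (60%), against 7818 of 19122 protein-coding genes (40.9%). Histone genes gave 0 of 69 and olfactory receptor genes 0 of 389. Markers of epithelial and lung cells gave 0 of 11, of leukocytes 0 of 6, of neurons 0 of 4 and of liver and red blood cells 0 of 5. A peak of any class was at 8 of 11, 3 of 6, 3 of 4 and 1 of 5 of these, against 40.9% of all protein-coding genes. With so few markers in a list, the labelled cell type was not checked further.

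Small RNA genes carried some members. Of 151 snRNA genes, 7 (4.64%, interval 1.88% to 9.32%) had a tall compact peak, against 0.779% of all genes. Among the 7, 5 are annotated only by LOC numbers. At these, 4 members lay in a cluster on chromosome 17 with maxima of 45, 11, 10 and 10. Tall broad peaks lay in this cluster too, the tallest with 35 at LOC124904137. RNU1-1, a U1 snRNA of the spliceosome, and RNU7-1, the U7 snRNA of histone mRNA processing, had 10 each, and RPPH1, the RNA of RNase P, had 12 in a peak shared with PARP2. Of 439 tRNA genes, 2 had one, TRI-TAT2-1 with 13 and TRQ-TTG1-1 with 12. The 4 members at ribosomal RNA genes were on chromosome 21 with maxima of 47, 46, 16 and 15. Ribosomal RNA also gave 13 tall broad peaks, which fell outside the width limit.

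Of the miRNAs at members, 4 mature sequences are shown, because 3 lie inside a member and the first lies beside the tallest member with a miRNA, with the seed (bases 2 to 8) in capitals, from RefSeq.
hsa-miR-4485-3p: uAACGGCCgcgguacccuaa
hsa-miR-8078: gGUCUAGGcccggugagagacuc
hsa-miR-3648: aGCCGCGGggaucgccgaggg
hsa-miR-658: gGCGGAGGgaaguagguccguuggu

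MIR4485 is at chr11:10508270-10508326 in MTRNR2L8, with members of 333, 53 and 33 within 1000 bp of it, and its mature sequence lay 311 to 886 bp from them. MIR8078 overlapped a member of 32 on chromosome 18. MIR3648-2 overlapped one of 21 on chromosome 21, where MIR10396A also lies, and MIR658 one of 12 on chromosome 22 inside ANKRD54. The 4 seeds differ from each other.

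Gene families in several copies recurred. On chromosome 21, 3 lncRNA genes, LOC124904992, LOC124904989 and LOC124904990, had members of 21, 21 and 19 at chr21:8107480-8108815, chr21:7141548-7142920 and chr21:5709584-5710797. Their 3 promoter windows are identical over all 300 bases, so their bases alone do not tell a read from one window from that of another. The window is shown once, for LOC124904992 at chr21:8108192-8108491 on the minus strand, with the maximum region in capitals, to make the shared sequence visible.
LOC124904992: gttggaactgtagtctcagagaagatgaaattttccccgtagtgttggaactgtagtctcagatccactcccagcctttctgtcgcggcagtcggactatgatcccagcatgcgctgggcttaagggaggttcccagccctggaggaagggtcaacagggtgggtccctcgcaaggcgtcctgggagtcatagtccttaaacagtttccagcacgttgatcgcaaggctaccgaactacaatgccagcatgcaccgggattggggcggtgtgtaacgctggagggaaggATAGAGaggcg

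Other families, chosen after their values were seen, were FAM86 with 3 members of 25, 23 and 11, and FAM72 with SRGAP2, where 3 copies on chromosome 1 gave 20, 15 and 12. FAM27 gave 32 and 17, DUX4 and its copies 39, 16, 13 and 12, NCF1B and NCF1C 12 and 15, and RASA4 and RASA4B 12 and 10. Some of these families also had tall broad peaks. Among them were a peak of 99 inside DUX4, 1 of 23 at FAM86DP and 1 of 10 at FAM72D and SRGAP2B. For genes in near-identical copies the values are uncertain, since the authors' placing of reads could split or move them.

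Chromosomes differed in how many members they held. Chromosome 19, the most gene-dense, held 63 of its 3511 peaks as members, 1.79% (1.38% to 2.29%), and 52 of the 63 were at a boundary. Besides CIC and TOMM40, these included TMED1 and NAPA at 18, PLAUR, the urokinase receptor gene, at 17, ELL, a transcription elongation factor, at 15, and KDM4B, a histone demethylase, at 14. Chromosome 21 had the highest share, 20 of 666 peaks or 3.003% (1.84% to 4.60%), of which 9 were at a boundary. Chromosome 15 had 5 of 1995, 0.251% (0.0814% to 0.584%), and all 5 were at a boundary with a maximum of 10: MEX3B, ASB7, ST20, INTS14 and PARP6 were among the genes. Chromosome 4 had 10 members with 0 at a boundary, among them DUX4 with 12, its copy DUX4L9 with 16 and the first peak of the chromosome with 11. Chromosome 5 had 25, of which 11 were at mitochondrial pseudogenes and 11 at a boundary.

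**Figure D5:**
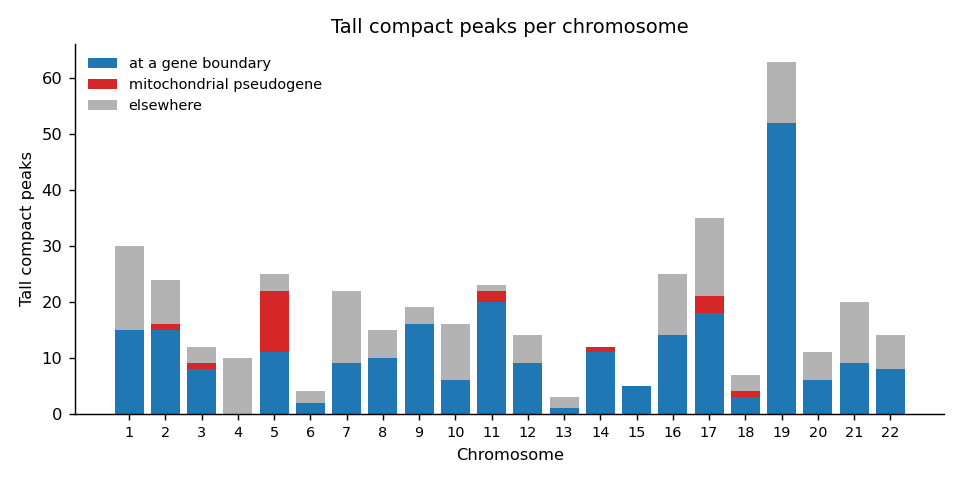
Number of tall compact peaks on each of chromosomes 1 to 22, split into those at a gene boundary (blue), those at a mitochondrial pseudogene but not at a boundary (red) and those elsewhere (grey). Chromosome 19 holds the most, 63, nearly all blue, while chromosome 4 has no blue and chromosome 5 has the largest red block.

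Most members had another peak nearby. Another peak lay within 10 kb of 274 of the 409, 67.0% (62.2% to 71.5%), against 83.3% of tall broad, 64.8% of middle compact, 55.5% of low compact and 56.9% of all peaks. The members' interval overlapped that of the middle compact peaks, 63.1% to 66.5%. The median gap to the next peak was 3634 bp for members and 7728 bp for low compact peaks, and 29.3% of members had one within 1 kb. A few of the tallest were isolated: the peak of 99 at MTRNR2L12 had no other within 195314 bp, and that of 91 on chromosome 7 none within 753009 bp.

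Peaks of the same heights that were wider than the limit give the contrast. The 5 tallest were chr1:629072-634932 with 1953, over mitochondrial pseudogenes, chr5:9986-11809 with 239, chr18:106628-111973 with 198, beside MIR8078, chr5:49601095-49603142 with 118 and chr21:8402489-8422181 with 113, at ribosomal RNA genes. The second was the first peak of chromosome 5 and the fourth lay in the widest stretch of that chromosome without a gene.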

How the data were processed

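The S9.6 CUT&Tag library of A549 cells was deposited as 1 peak list; its signal columns, a total signal and a maximum coverage per peak, are the authors' values, whole numbers with no stated scaling. Per the submitters' processing notes, SEACR 1.3, a peak caller, was named beside Bowtie2 2.4.2, an aligner, with fastp 0.23.2, SAMtools 1.9, deepTools 3.5.2 and bedtools 2.30.0, on the build GRCh38. The peak list is labelled stringent. Not given in the sources used here are the numeric threshold, the use of the IgG control and how duplicate reads or reads with several places to map were treated. The total number of reads is unknown, so a peak's height is known only within this library.

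Peaks on chromosomes 1 to 22 were joined to 56752 RefSeq genes and 33725 promoter windows (GRCh38.p14) with Python 3.11.15, pandas 2.3.3 and scipy 1.17.1. The summit is the middle of the maximum region. The intersections were tested on simulated peaks. Members, gene lists and motifs were chosen with earlier results of these data known. Named members are the 20 tallest, the 5 tallest of each setting where space allowed, up to 5 per gene list, those nearest the limits and the 5 tallest wide peaks. Other genes named for a shared promoter, chromosome or family were chosen after their values were seen. Of the 20 tallest members, 1 is not reported here.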

Additional observations from a re-analysis of the deposited data

Results flagged for a closer look

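Peaks outside chromosomes 1 to 22 entered no comparison. There, 77 of 2816 peaks (2.73%) on 39 other sequences met the same limits of height and width, against 0.909% on chromosomes 1 to 22, and the tallest reached 238. The mitochondrial chromosome was 1 peak with a maximum coverage of 7798 and a mean of 6094. Without the IgG values, no control level stands beside these.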

How the results depend on the processing

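No paired analysis was possible because both libraries are single and the result comes from no test. The share of members at a gene boundary, 60.6%, moved outside its interval to 38.4% with a maximum of 15 or more, 51.9% with a width below 1000 bp, 55.0% with protein-coding genes only, and 66.8% without mitochondrial pseudogenes, ribosomal RNA genes and first or last peaks, an alternative added after seeing the data. Summits at a boundary moved to 36.2% (maximum of 15), 51.5% (below 1000 bp), 52.3% (no limit on width) and 52.3% (protein-coding genes only). Summits between genes moved to 21.2% with a maximum of 8 or more, 43.5% with 15 or more and 30.3% with protein-coding genes only. Boundaries of 2 or more genes moved to 19.6% (maximum of 15), 21.3% (below 1000 bp) and 34.2% (window of 2000 bp). Another peak nearby moved to 58.7% (below 1000 bp), 72.6% (no limit on width) and 89.98% (within 50 kb). Listed genes with a member went to 61 at a maximum of 8 or more and 5 at 15 or more, where the share over all protein-coding genes was 3.23% and 0.303%. The share of summits upstream of a start was 71.3% to 77.3% over 6 alternatives added after seeing the data, inside its interval. The cause of these moves was not tested beyond the change in which peaks or genes were counted. Of 65 recomputed values of the main results, 46 counted as unmoved. For the single gene lists, counted apart, 71 values were unmoved and 25 moved. The rule was staying inside the interval, within 1.5 times the count or, for median promoter GC, between the quartiles of the members' windows.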
